A study of Mus musculus with 9 samples.

Results

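The genes described here encode enzymes of the urea cycle and of amino acid breakdown, the reactions by which the liver turns surplus amino acids into fuel, glucose and urea. The list holds 39 genes in 9 pathway groups. A gene was taken where a probe set of the array names that gene alone, and for a gene with several such probe sets the brightest over all 9 arrays was used. In this way 34 of the 39 genes were measured, among 19938 genes in all. Ass1 and Ahcy were met only on probe sets that name several genes, and Sds, Sdsl and Gls2 had no probe set named for them alone, so these 5 were not analysed here.

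Expression was measured in mice on Affymetrix whole-transcript arrays in 3 groups of 3. The WT livers came from C57Bl/6 mice with loxP-flanked Notch1 (Notch1 lox/lox) and no Cre. The KO livers came from MxCre Notch1 lox/lox mice, in which Cre is driven by an interferon-inducible promoter that is active in many cell types, and removes the exon that encodes the signal peptide of Notch1. Mice of both genotypes were given poly(I:C), 300 µg each time, which imitates viral double-stranded RNA, on days 0, 3 and 6 from an age of 4 weeks, so the controls had the treatment and the floxed allele but not Cre. The 3 AS cell lines were derived independently from endothelial cells of the liver of Notch1 KO mice that had a visible angiosarcoma, a tumour of vessel-lining cells, and had been kept in culture for a long time. The extraction protocol names PHH, an abbreviation the sources used here leave unexplained, so which fraction of the liver was extracted is not settled. All values are log2 expression, where a difference of 1 is a 2-fold difference. The small number of arrays, 3 a group, sets the precision of all values.

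As background, the urea cycle joins ammonia, freed when amino acids are broken down, with bicarbonate and aspartate, and runs mainly in hepatocytes around the portal vein. Most of the breakdown enzymes listed here are made in high amounts by hepatocytes and in much lower amounts by other liver cells. Many of them respond to glucocorticoids, glucagon and dietary protein.

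Several facts of the whole series bear on these genes. Notch1 read 11.69, 11.02 and 11.71 in WT livers 1 to 3 and 7.84, 8.75 and 8.52 in KO livers 1 to 3. By the difference of the log2 means the KO livers were at 11.6% of the WT livers (exact permutation test, 2-sided p = 0.1, the smallest that 3 against 3 allows). The mean of 20 hepatocyte genes that are not among the enzymes (secreted proteins such as Alb and Ttr, called the hepatocyte reference below) ran from 9.39 to 12.83 over the 6 livers. It was 11.54, 12.63 and 12.72 in WT livers 1 to 3 and 11.02, 12.83 and 9.39 in KO livers 1 to 3. In these bulk samples fewer hepatocytes, in the liver or in the fraction extracted, cannot be told apart from less of these RNAs per hepatocyte. Over the 6 livers sinusoidal endothelial markers averaged 12.85 to 13.06, and Kupffer cell and macrophage markers 11.30 to 11.93. Whether a varying share of hepatocytes in the extracted fraction had a part in the enzyme values was not tested. Endothelial markers averaged 11.97 in WT livers and 12.25 in KO livers but 6.31 in the AS lines. All 10 fell in the lines against either liver group, where 11.1% of all genes fell against WT livers and 10.1% against KO livers. The data therefore do not show the endothelial character that the label of the lines names. The lines had a high Alb of 12.31, 13.67 and 12.82, but most of the hepatocyte reference was lower in them. Against WT livers 18 of its 20 genes were negative, with a median of -2.17. Of the 20, 6 fell, against 11.1% of all genes, and 0 rose, against 17.6%. Of 8 listed cholangiocyte markers 5 were measured. Of these, 4 rose in the lines against WT livers, where 17.6% of all genes did, and 4 against KO livers, where 11.4% did. Krt19 and Krt7 were among those that rose, and 1 marker differed from WT livers by -0.44 without passing. Y-linked genes averaged 8.11 in KO liver 3 and 4.16 to 4.37 in the other 8 arrays, so KO liver 3 also differed from the other livers in these genes, whose part in the results was not tested.

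In the comparison of KO with WT livers, which asks what differs in the liver after deletion of Notch1, the enzymes lay lower in KO livers but none passed the test. The log2 difference was negative for 33 of 34 genes, against 50.2% of all genes, with a median of -1.46 against -0.00 over all genes. The hepatocyte reference moved alike, with 20 of 20 genes negative, a median of -1.22 and 0 past the threshold. The test was limma's moderated test on the 6 arrays; p-values were adjusted over all 19938 genes by the method of Benjamini and Hochberg and called under 0.05. It called 0 of the 34 enzymes, and 0% of all genes in either direction. The adjusted p of the enzymes ran from 0.139 for Hal to 0.824 for Glud1. At an unadjusted p under 0.05 only Hal passed, where 22.5% of all genes did, 5.17% with a lower value in KO livers. The values of the KO and WT livers did not overlap for Hal alone, with the KO livers lower, against 11.1% of all genes, and for no enzyme with the KO livers higher, against 19.2%.

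The spread within the liver groups followed the same animals in nearly every enzyme. KO liver 2 was the highest of the KO livers in 34 of 34 enzymes, against 30.8% of all genes, and at least 2-fold above both other KO livers in 31, against 4.4%. In 33 of 34 enzymes it lay within or above the range of the WT livers, with Hal as the exception, against 71.1% of all genes. KO livers 1 and 3 both lay below every WT liver in 32 of 34, against 20.9% of all genes; Aass and Glud1 were the others. WT liver 1 was the lowest of the WT livers in 34 of 34, against 43.6%. These patterns were shared by the hepatocyte reference. Of its 20 genes, KO liver 2 was the highest KO liver in 20 and at least 2-fold above both others in 18. KO livers 1 and 3 both lay below every WT liver in 20, and WT liver 1 was the lowest WT liver in 20. The mean of the 34 enzymes was 9.38, 10.64 and 10.64 in WT livers 1 to 3 and 8.33, 10.67 and 7.69 in KO livers 1 to 3, and the hepatocyte reference was likewise lowest in WT liver 1 and KO liver 3 of their groups and highest in KO liver 2. Other lists moved with the groups as well. The mean of 7 proliferation genes was 7.14 to 7.39 in WT livers and 9.68, 8.19 and 9.23 in KO livers. All 7 were positive, and every KO liver lay above every WT liver in 7 of 7, against 19.2% of all genes. The unadjusted limma p was under 0.05 for 7 of 7, against 22.5% of all genes, with 0 past the adjusted threshold. The mean of 8 lymphocyte genes was 6.25, 8.31 and 8.40 in WT livers and 6.31 to 6.49 in KO livers. All 8 were negative, against 50.2% of all genes, with 1 wholly lower in KO livers, against 11.1%, and 0 past the threshold. The mean of 5 cholangiocyte genes was 6.91 to 7.25 in WT livers and 6.13 to 6.25 in KO livers. Every KO liver lay below every WT liver in 5 of 5 of them, against 11.1% of all genes, with 0 past the threshold and a lowest limma adjusted p of 0.0995. The part of these lists in the enzyme values was not tested. Leaving out KO liver 2 moved the median difference to -2.55 and brought 8 enzymes past the threshold as lower (Otc, Hal, Tat, Hgd, Tdo2, Bhmt, Cth and Gnmt), where 1.39% of all genes passed as lower. Weights estimated per array, low for KO liver 2 and WT liver 1, brought 31 enzymes past it as lower, against 9.22% of all genes. Leaving out KO liver 3, the liver with Y-linked signal, gave a median of -0.69 and 0 calls.

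**Figure D1:**
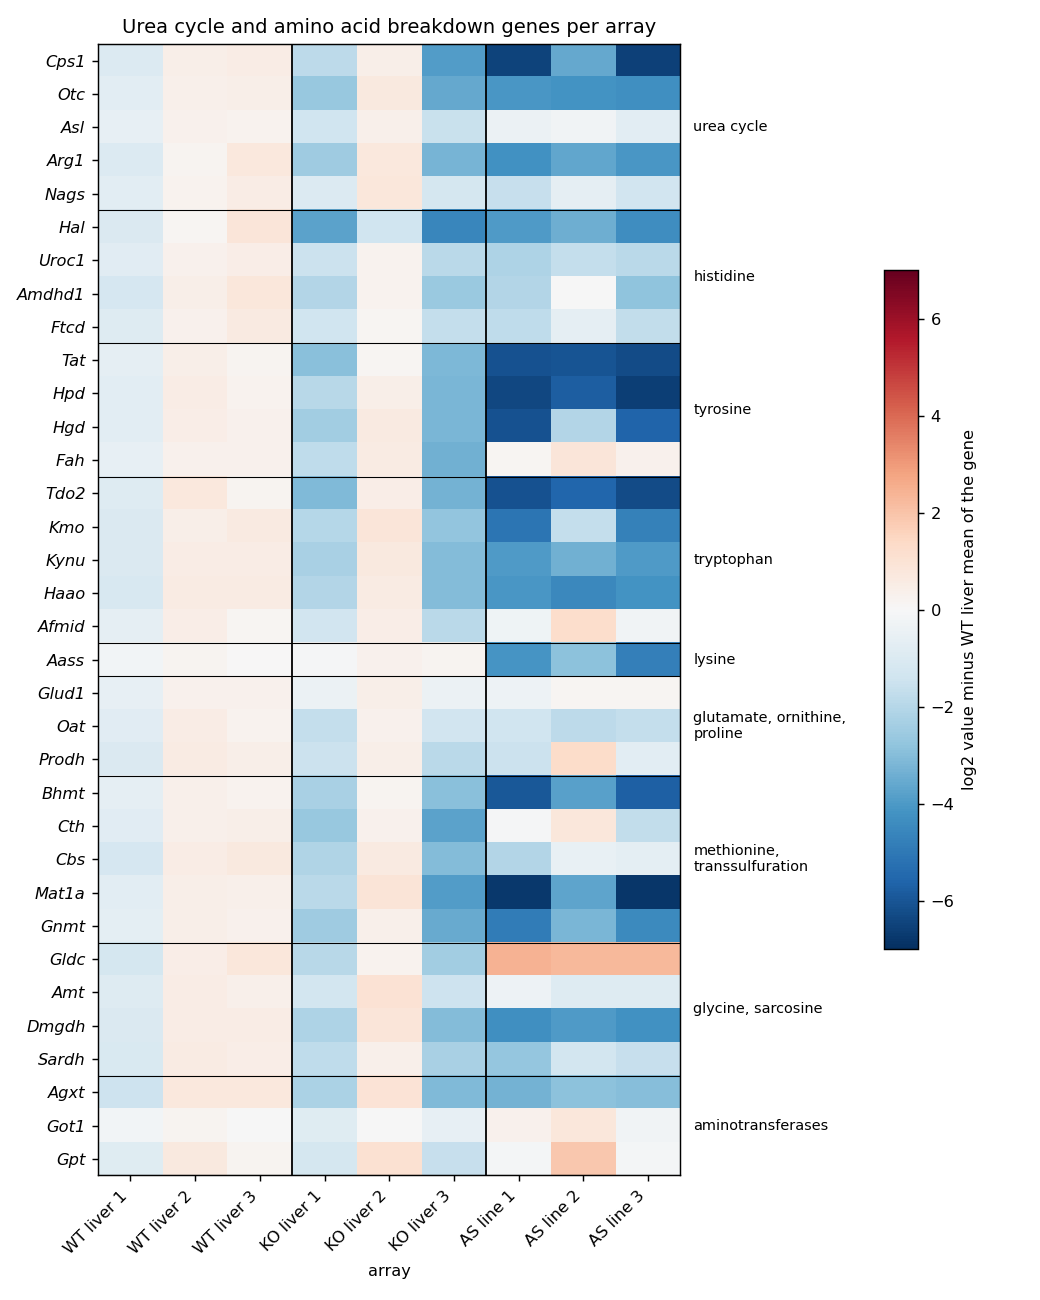
Each row is 1 of the 34 enzymes and each column 1 array, in the order WT liver, KO liver and AS line with replicates 1 to 3 in each. Colour gives the log2 value minus the gene's WT liver mean, with blue for lower and red for higher. KO livers 1 and 3 are blue in nearly all rows while KO liver 2 is near the WT livers, and in the AS lines dark blue rows such as Tat and Hpd stand beside pale ones such as Glud1 and a red one, Gldc.

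The AS lines were compared with WT and with KO livers to ask what sets the lines apart from liver tissue; both comparisons use the same 3 lines, and their livers are those of the comparison above. Against WT livers 19 of 34 enzymes fell, where 11.1% of all genes did, and 1 rose, Gldc, where 17.6% of all genes did. The median log2 difference was -2.48, against 0.02 over all genes. Over all genes 3506 rose and 2209 fell, a split that became 2476 and 2884 with scaling to the 75th percentile, where 23 enzymes passed. The hepatocyte reference had a median of -2.17 in the same comparison, with 6 of 20 genes lower. Of the 20 calls, 14 held whichever array was left out, while Uroc1, Hgd, Kmo, Oat, Agxt and Gldc were lost without at least 1 array. With single arrays left out the calls over all genes also went down, from 5715 to between 3397 and 5435. The values of lines and WT livers did not overlap for 20 enzymes with the lines lower, against 19.5% of all genes, and for 1 with the lines higher, against 28.3%. Against KO livers, whose values were more spread, 3 of 34 fell (Tat, Hpd and Aass; 10.1% of all genes fell) and 1 rose (Gldc; 11.4% of all genes rose), with a median of -0.80 against 0.05. Here 10 enzymes had lines wholly below the KO livers, against 16.7% of all genes, and 1 wholly above, against 24.1%. Only the call of Aass held whichever array was left out, and the calls over all genes went from 4275 to between 2281 and 4048.

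**Figure D2:**
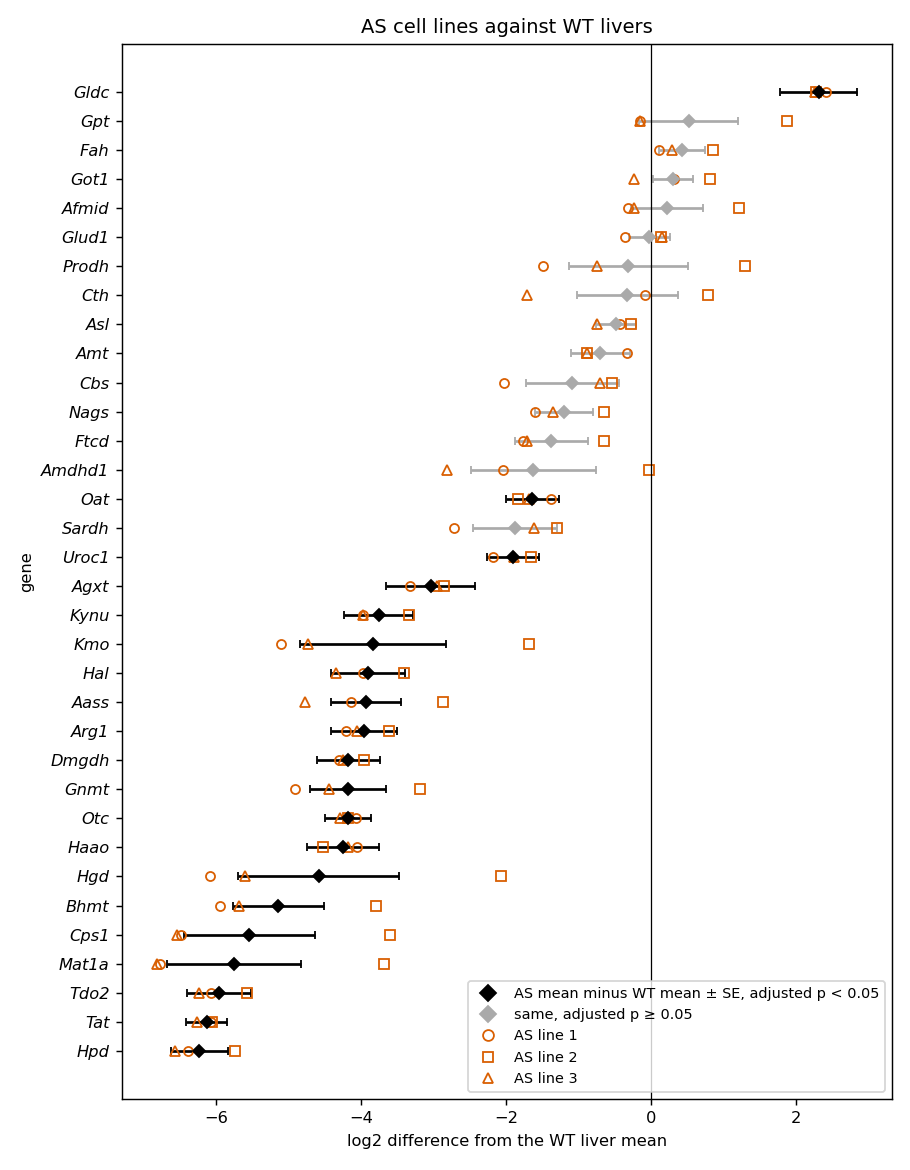
The horizontal axis is the log2 difference from the WT liver mean and each row is 1 enzyme, sorted by the difference. Diamonds with bars are the mean of the AS lines minus the mean of the WT livers ± SE, black where the limma adjusted p is under 0.05 and grey otherwise, and open symbols are the 3 lines. Hpd at -6.24 and Tat at -6.14 lie at the low end, Gldc at 2.32 lies at the high end, and AS line 2 (squares) lies to the right of the other lines in genes such as Cps1, Hgd and Mat1a.

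Of the urea cycle, 5 of 6 enzymes were measured, and 3 of them, Cps1, Otc and Arg1, fell in the AS lines against WT livers. Cps1, the mitochondrial enzyme that makes carbamoyl phosphate from ammonia and so opens the cycle, read 11.11, 12.49 and 12.56 in WT livers, 10.25, 12.48 and 8.15 in KO livers and 5.56, 8.45 and 5.51 in AS lines. KO liver 2 lay among the WT livers, KO liver 3 was more than 2 log2 units below them, and AS line 2 stood above the other lines and above KO liver 3. The AS lines differed from WT livers by -5.55 (SE 0.909, limma adjusted p = 0.00808), a 46.7-fold lower level.

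Otc, which joins carbamoyl phosphate to ornithine, read 8.37, 9.45 and 9.48 in WT livers, 6.42, 9.76 and 5.51 in KO livers and 5.02, 4.91 and 4.80 in AS lines. All 3 lines lay below all 6 livers and close to one another, at low values that may be background. The difference from WT livers was -4.19 (SE 0.319, limma adjusted p = 0.000557). Arg1, the arginase that releases urea, read 8.59, 9.78 and 10.30 in WT livers, 7.09, 10.30 and 6.32 in KO livers and 5.34, 5.95 and 5.50 in AS lines. It too was below every liver in all lines, by -3.96 from WT livers (SE 0.455, limma adjusted p = 0.00238). Arg2, the mitochondrial arginase, which is also found outside the liver, fell by 2.74 in the lines against WT livers (SE 0.493, limma adjusted p = 0.0109) and by 2.66 against KO livers (SE 0.434, limma adjusted p = 0.0119).

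Asl, which splits argininosuccinate into arginine and fumarate and also serves arginine synthesis in other tissues, kept liver-like values in the lines. It read 8.68, 9.55 and 9.51 in WT livers, 7.84, 9.63 and 7.67 in KO livers and 8.82, 8.98 and 8.50 in AS lines, and differed by -0.48 from WT livers (SE 0.273, limma adjusted p = 0.251). Nags, which makes the N-acetylglutamate that Cps1 needs as activator, read 6.80 to 8.03 in WT livers, 6.33 to 8.33 in KO livers and 5.93 to 6.88 in AS lines, and did not pass the test (-1.20, SE 0.399, limma adjusted p = 0.0751). Against WT livers Nags passed in 5 of its 14 alternative settings. The ornithine carrier Slc25a15, which feeds Otc inside the mitochondrion, differed by -1.44 (SE 0.551, limma adjusted p = 0.11), and the aspartate-glutamate carrier Slc25a13, which exports aspartate for the cycle, by 0.43 (SE 0.393, limma adjusted p = 0.468). Cad, which carries the cytosolic carbamoyl phosphate synthetase of pyrimidine synthesis, rose by 1.64 (SE 0.407, limma adjusted p = 0.0323), with 10.14, 9.02 and 8.78 in the lines against 7.22 to 7.98 in WT livers.

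Histidine breakdown held the enzyme that differed most between KO and WT livers. Hal, histidine ammonia-lyase, takes the amino group off histidine as the first step. It read 8.87, 9.99 and 10.73 in WT livers, 6.13, 8.46 and 5.29 in KO livers and 5.89, 6.46 and 5.51 in AS lines. Every KO liver lay below every WT liver, KO liver 2 by the smallest margin, and KO livers 1 and 3 were at the level of the lines. The log2 means differed by -3.24 (SE 0.921, limma adjusted p = 0.139), which puts the KO livers at 10.6% of the WT livers. An exact permutation test on 3 against 3 gave a 2-sided p = 0.1, the smallest possible. Hal passed the threshold without KO liver 2, at -4.16 (limma adjusted p = 0.0295). The lines differed from WT livers by -3.91 (SE 0.512, limma adjusted p = 0.00364) and differed from KO livers by -0.67 (SE 0.853, limma adjusted p = 0.644). The 250 bases before the RefSeq start of Hal (GRCm38.p6, chr10:93488518-93488767, plus strand) are given because Hal is the enzyme of widest liver difference; capitals mark each CpG, of which there are 6.
Hal: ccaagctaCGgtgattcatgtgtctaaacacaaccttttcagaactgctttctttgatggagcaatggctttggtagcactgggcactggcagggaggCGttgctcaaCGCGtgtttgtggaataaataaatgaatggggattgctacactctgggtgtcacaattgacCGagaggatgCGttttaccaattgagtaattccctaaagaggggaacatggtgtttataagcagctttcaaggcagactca

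The next enzymes of the pathway differed less. Uroc1, urocanate hydratase, read 7.32, 8.42 and 8.59 in WT livers, 6.63, 8.36 and 6.23 in KO livers and 5.93, 6.46 and 6.22 in AS lines. The lines were below all WT livers, with a difference of -1.91 (SE 0.364, limma adjusted p = 0.0135); this call was lost without WT liver 2. Amdhd1, the imidazolonepropionase, read 7.18, 8.74 and 9.15 in WT livers, 6.31, 8.58 and 5.74 in KO livers and 6.31, 8.33 and 5.54 in AS lines. AS line 2 lay among the WT livers, AS line 1 was level with KO liver 1, and AS line 3 was below every liver. Ftcd, which passes the formimino group of histidine to folate, read 7.94, 9.16 and 9.49 in WT livers and 7.09, 8.21 and 7.14 in AS lines. Neither passed against WT livers, with -1.63 for Amdhd1 (SE 0.862, limma adjusted p = 0.225) and -1.38 for Ftcd (SE 0.504, limma adjusted p = 0.0973).

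In tyrosine breakdown the first 3 of the measured steps fell steeply in the AS lines while the last did not. Tat, the tyrosine aminotransferase that opens the pathway and a classical glucocorticoid-induced liver gene, read 11.46, 12.51 and 12.26 in WT livers, 9.14, 12.22 and 8.93 in KO livers and 6.00, 6.01 and 5.81 in AS lines. The lines lay close to one another, at low values that may be background, and far below the lowest liver. The difference was -6.14 from WT livers (SE 0.28, limma adjusted p = 9.22e-05), or 70.3-fold, and -4.15 from KO livers (SE 0.919, limma adjusted p = 0.0305). Hpd, which turns the resulting hydroxyphenylpyruvate into homogentisate, read 11.63, 12.92 and 12.63 in WT livers, 10.47, 12.80 and 9.18 in KO livers and 6.00, 6.64 and 5.82 in AS lines. Its difference was -6.24 from WT livers (SE 0.394, limma adjusted p = 0.000292), or 75.3-fold, and -4.66 from KO livers (SE 0.936, limma adjusted p = 0.0227). The calls of Tat and Hpd against KO livers were lost without AS line 1, 2 or 3, and also without KO liver 1, and for Tat without KO liver 3.

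Hgd, homogentisate dioxygenase, read 10.82, 12.04 and 11.87 in WT livers, 9.17, 12.19 and 8.38 in KO livers and 5.49, 9.51 and 5.97 in AS lines. The difference from WT livers was -4.59 (SE 1.11, limma adjusted p = 0.0295), with AS line 2 more than 3 log2 units above the other lines, inside the range of the KO livers. This call was lost without any 1 of the WT livers and without AS line 1 or 3. Fah, the fumarylacetoacetate hydrolase that ends the pathway and protects hepatocytes from toxic intermediates, read 10.82, 11.71 and 11.68 in WT livers, 9.62, 12.00 and 8.01 in KO livers and 11.51, 12.26 and 11.70 in AS lines. The lines overlapped the WT livers, with a difference of 0.42 (SE 0.315, limma adjusted p = 0.38), and lay above KO livers 1 and 3. Without KO liver 2 Fah passed as higher in the lines than in KO livers, by 3.01 (limma adjusted p = 0.0324). The promoters of Tat, Hpd and Fah are shown as those of the first steps and of the last. The 250 bases before each RefSeq start in GRCm38.p6 are chr8:109990186-109990435 (plus strand) for Tat, chr5:123182724-123182973 (minus strand) for Hpd and chr7:84605943-84606192 (minus strand) for Fah, with each CpG in capitals. They hold 3, 7 and 16 CpG, and that of Hgd holds 1. Fah was chosen for printing after its values were seen, so nothing is read from its CpG count beside the others.
Tat: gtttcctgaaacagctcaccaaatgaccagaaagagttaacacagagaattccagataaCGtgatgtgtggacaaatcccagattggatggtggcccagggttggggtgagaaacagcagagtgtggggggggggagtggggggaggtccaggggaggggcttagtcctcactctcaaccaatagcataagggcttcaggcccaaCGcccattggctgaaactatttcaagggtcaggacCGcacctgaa
Hpd: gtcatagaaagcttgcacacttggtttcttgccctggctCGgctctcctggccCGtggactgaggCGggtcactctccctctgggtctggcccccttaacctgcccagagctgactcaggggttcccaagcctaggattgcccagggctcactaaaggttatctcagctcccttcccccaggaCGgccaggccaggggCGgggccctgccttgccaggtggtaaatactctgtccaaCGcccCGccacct
Fah: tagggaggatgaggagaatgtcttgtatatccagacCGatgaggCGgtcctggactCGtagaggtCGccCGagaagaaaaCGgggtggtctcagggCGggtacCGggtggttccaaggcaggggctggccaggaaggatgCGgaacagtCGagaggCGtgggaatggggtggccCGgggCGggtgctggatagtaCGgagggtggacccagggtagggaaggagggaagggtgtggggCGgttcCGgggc

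In tryptophan breakdown along the kynurenine route, 4 of 5 enzymes fell in the AS lines against WT livers. Tdo2, the dioxygenase that opens the tryptophan ring, read 9.89, 11.50 and 10.96 in WT livers, 7.69, 11.24 and 7.48 in KO livers and 4.70, 5.21 and 4.53 in AS lines. All lines were below every liver, and the difference from WT livers was -5.96 (SE 0.437, limma adjusted p = 0.000493), or 62.4-fold. Against KO livers the difference was -3.98 (SE 1.07, limma adjusted p = 0.0531). The other enzymes that can open the ring did not pass against WT livers. Ido1 differed by 0.13 (SE 0.109, limma adjusted p = 0.419) and Ido2 by -1.34 (SE 0.397, limma adjusted p = 0.0547). The promoter of Tdo2 (RefSeq, GRCm38.p6, chr3:81975729-81975978, minus strand) is shown for its large difference, with its 3 CpG in capitals.
Tdo2: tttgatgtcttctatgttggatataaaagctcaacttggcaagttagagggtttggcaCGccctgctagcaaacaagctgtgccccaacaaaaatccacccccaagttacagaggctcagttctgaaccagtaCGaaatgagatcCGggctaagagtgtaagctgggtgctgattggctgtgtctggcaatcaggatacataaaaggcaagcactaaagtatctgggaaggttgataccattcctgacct

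Afmid, the formamidase of the following step, stayed at liver level in the lines. It read 8.68, 9.77 and 9.41 in WT livers, 7.94, 9.78 and 7.43 in KO livers and 8.97, 10.50 and 9.05 in AS lines, a difference of 0.22 from WT livers (SE 0.503, limma adjusted p = 0.784). Kmo, the hydroxylase of kynurenine, read 9.26, 10.68 and 10.93 in WT livers, 8.30, 11.13 and 7.54 in KO livers and 5.18, 8.60 and 5.56 in AS lines. AS line 2 stood 3 log2 units above its neighbours, and the difference of -3.84 from WT livers (SE 1.01, limma adjusted p = 0.0379) was lost without any 1 of the WT livers and without AS line 1 or 3. Kynu, the kynureninase, read 8.43, 9.996 and 9.96 in WT livers, 7.17, 10.17 and 6.44 in KO livers and 5.49, 6.12 and 5.48 in AS lines, a difference of -3.76 from WT livers (SE 0.473, limma adjusted p = 0.00317). Haao, which makes the precursor of quinolinate, read 9.68, 11.39 and 11.41 in WT livers, 8.77, 11.40 and 7.81 in KO livers and 6.76, 6.31 and 6.65 in AS lines, a difference of -4.25 (SE 0.499, limma adjusted p = 0.00256). For Kynu and Haao all 3 lines lay below all 6 livers.

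Aass, the bifunctional enzyme that opens lysine breakdown, was the one enzyme whose difference between KO and WT livers was positive, and its livers were close together. It read 10.53, 10.89 and 10.73 in WT livers, 10.61, 11.04 and 10.90 in KO livers and 6.57, 7.84 and 5.93 in AS lines. Its range over the 6 livers was 0.50, where the hepatocyte reference mean ranged over more than 3 log2 units. The KO livers differed by 0.13 (SE 0.145, limma adjusted p = 0.594), and this sign turned with scaling to the 75th percentile (-0.0497) and with array weights (-0.0592). The lines fell by 3.93 against WT livers (SE 0.483, limma adjusted p = 0.00295) and by 4.07 against KO livers (SE 0.498, limma adjusted p = 0.00488), and both calls held in all 14 alternative settings.

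Of the 3 measured enzymes of glutamate, ornithine and proline metabolism, only Oat fell in the AS lines against WT livers. Glud1, glutamate dehydrogenase, which releases ammonia from glutamate in the mitochondria of many tissues, read 10.93, 11.77 and 11.77 in WT livers, 11.11, 11.91 and 11.06 in KO livers and 11.13, 11.63 and 11.64 in AS lines. The groups overlapped throughout, with a difference of -0.03 between lines and WT livers (SE 0.283, limma adjusted p = 0.96) and -0.13 between KO and WT livers (SE 0.336, limma adjusted p = 0.824). Glud1 and Aass were the only enzymes with a range under 1 over the 6 livers, against 85.7% of all genes. The promoter of Glud1 (RefSeq, GRCm38.p6, chr14:34310477-34310726, plus strand), chosen after its values were seen, held the most CpG of the matched promoters, 46, shown in capitals.
Glud1: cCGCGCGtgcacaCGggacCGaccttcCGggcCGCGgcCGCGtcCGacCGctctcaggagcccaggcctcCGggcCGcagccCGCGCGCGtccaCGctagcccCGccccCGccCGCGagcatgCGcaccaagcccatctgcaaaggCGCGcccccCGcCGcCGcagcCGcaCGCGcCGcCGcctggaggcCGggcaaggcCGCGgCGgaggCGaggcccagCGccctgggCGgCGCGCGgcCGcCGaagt

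Oat, which moves the amino group of ornithine onward, read 11.29, 12.61 and 12.36 in WT livers, 10.42, 12.38 and 10.74 in KO livers and 10.70, 10.25 and 10.40 in AS lines. The lines were below all WT livers but within the range of the KO livers or just under it, and the difference of -1.64 from WT livers (SE 0.364, limma adjusted p = 0.0224) was lost without WT liver 2 or 3, AS line 2 or 3. Prodh, proline dehydrogenase, read 8.07, 9.65 and 9.52 in WT livers, 7.59, 9.48 and 7.20 in KO livers and 7.59, 10.38 and 8.33 in AS lines, with AS line 2 above every liver, and did not pass (-0.31, SE 0.821, limma adjusted p = 0.811).

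In the methionine group Mat1a, Gnmt and Bhmt fell in the AS lines against WT livers, while the transsulfuration enzymes did not pass. None of the 5 measured enzymes passed against KO livers. Mat1a, the liver form of the enzyme that makes S-adenosylmethionine, read 11.62, 12.78 and 12.70 in WT livers, 10.46, 13.27 and 8.46 in KO livers and 5.59, 8.68 and 5.55 in AS lines. AS line 2 reached the level of KO liver 3 and the other lines were far below, for a difference of -5.76 from WT livers (SE 0.925, limma adjusted p = 0.00759), or 54.2-fold. Gnmt, which consumes S-adenosylmethionine to methylate glycine, read 11.08, 12.17 and 12.07 in WT livers, 9.29, 12.14 and 8.24 in KO livers and 6.86, 8.59 and 7.32 in AS lines, a difference of -4.18 (SE 0.525, limma adjusted p = 0.00317). Bhmt, which remethylates homocysteine with betaine, read 11.12, 12.11 and 12.01 in WT livers, 9.45, 11.93 and 8.82 in KO livers and 5.80, 7.95 and 6.06 in AS lines, a difference of -5.15 (SE 0.629, limma adjusted p = 0.0029). In all 3 genes AS line 2 was more than 1 log2 unit above the other lines. Bhmt was the only enzyme with more than 1 probe set: the second ran alike, and the last was dim, between 4.82 and 5.98 in all arrays.

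The transsulfuration enzymes, which pass the sulfur of homocysteine to cysteine, did not pass in any comparison. Cbs, the first of them, read 9.39, 11.08 and 11.26 in WT livers, 8.47, 11.21 and 7.54 in KO livers and 8.55, 10.04 and 9.87 in AS lines. Cth, the second, read 9.97, 11.12 and 11.14 in WT livers, 8.08, 11.04 and 6.99 in KO livers and 10.66, 11.53 and 9.04 in AS lines. Against WT livers the lines differed by -1.09 for Cbs (SE 0.64, limma adjusted p = 0.27) and -0.33 for Cth (SE 0.697, limma adjusted p = 0.764), and line values overlapped those of the WT livers. Cbs passed there in 1 of its 14 alternative settings. Cth had the largest difference between KO and WT livers after Hal, -2.04 (SE 1.07, limma adjusted p = 0.314), with KO livers 1 and 3 below every WT liver and KO liver 2 among them. Among related enzymes outside the list, Bhmt2 fell by 2.96 in the lines against WT livers (SE 0.505, limma adjusted p = 0.00925) and Mtr, the folate-dependent methionine synthase, by 0.67 (SE 0.147, limma adjusted p = 0.0212).

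Gldc was the one enzyme that rose in the AS lines. It is the glycine-decarboxylating subunit of the mitochondrial glycine cleavage system. It read 7.22, 8.91 and 9.26 in WT livers, 6.53, 8.70 and 6.05 in KO livers and 10.87, 10.74 and 10.73 in AS lines. The lines lay close to one another and above all 6 livers. The rise was 2.32 against WT livers (SE 0.533, limma adjusted p = 0.0252), or 4.98-fold, and 3.69 against KO livers (SE 0.705, limma adjusted p = 0.0193), or 12.9-fold. With single arrays left out the rise against WT livers stayed between 1.69 and 2.71, but the limma adjusted p went up to 0.0666 and was above 0.05 without WT liver 2 or any 1 of the lines. The promoter of Gldc (RefSeq, GRCm38.p6, chr19:30175442-30175691, minus strand) is shown because Gldc moved against the other enzymes, with its 8 CpG in capitals.
Gldc: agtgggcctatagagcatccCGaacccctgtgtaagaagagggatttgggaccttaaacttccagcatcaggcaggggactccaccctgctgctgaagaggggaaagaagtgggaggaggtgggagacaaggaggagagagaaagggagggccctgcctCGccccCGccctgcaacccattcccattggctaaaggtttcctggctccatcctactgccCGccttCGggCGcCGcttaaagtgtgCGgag

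Its partner Amt, the aminomethyltransferase of the same complex, did not move with it, with 6.88, 8.27 and 8.14 in WT livers, 6.50, 8.78 and 6.32 in KO livers and 7.43, 6.88 and 6.88 in AS lines (against WT livers -0.70, SE 0.407, limma adjusted p = 0.264). The other subunits Gcsh (0.88, SE 0.27, limma adjusted p = 0.0594) and Dld (0.46, SE 0.194, limma adjusted p = 0.136) did not pass either. In both, however, all 3 lines lay above all 6 livers, as in 19.8% of all genes. Gcsh read 6.76 to 7.14 in the lines and 5.45 to 6.50 in the livers, and Dld 8.73 to 9.04 and 8.02 to 8.62. Dmgdh, which demethylates dimethylglycine, read 9.11, 10.62 and 10.64 in WT livers, 7.99, 10.95 and 7.10 in KO livers and 5.81, 6.16 and 5.87 in AS lines, a difference of -4.18 from WT livers (SE 0.438, limma adjusted p = 0.00174) with every line below every liver. Sardh, which does the same for sarcosine, read 9.39, 11.04 and 10.92 in WT livers, 8.70, 10.83 and 8.17 in KO livers and 7.73, 9.15 and 8.83 in AS lines, and its difference of -1.88 did not pass (SE 0.577, limma adjusted p = 0.0603); it passed in 6 of 14 alternative settings.

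Of the aminotransferases, only Agxt fell in the lines. Agxt, the peroxisomal enzyme that detoxifies glyoxylate, read 7.74, 9.91 and 9.90 in WT livers, 6.98, 10.16 and 6.07 in KO livers and 5.86, 6.33 and 6.23 in AS lines, a difference of -3.04 from WT livers (SE 0.619, limma adjusted p = 0.0168) whose call was lost without WT liver 2 or 3. Got1, the cytosolic aspartate aminotransferase present in most tissues, read 11.98, 12.36 and 12.15 in WT livers, 11.34, 12.13 and 11.57 in KO livers and 12.48, 12.98 and 11.93 in AS lines (0.30, SE 0.278, limma adjusted p = 0.478). Gpt, the cytosolic alanine aminotransferase, read 7.19, 8.72 and 8.25 in WT livers, 6.82, 9.09 and 6.46 in KO livers and 7.89, 9.93 and 7.91 in AS lines (0.52, SE 0.683, limma adjusted p = 0.617). Neither passed, and the lines overlapped the WT livers. Their mitochondrial counterparts Got2 (0.42, SE 0.225, limma adjusted p = 0.234) and Gpt2 (0.94, SE 0.456, limma adjusted p = 0.19) did not pass either.

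Within the lines the 34 enzymes were spread over both sides of the array median. They were below the median of all genes of the array in all 3 lines for 12 enzymes, Tat, Otc and Tdo2 among them, against 45.5% of all genes. They were above that median in all 3 lines for 13, among them Fah, Asl, Cbs and Got1, against 45.7% of all genes. A further 7 (Cps1, Amdhd1, Hgd, Kmo, Aass, Bhmt and Mat1a) were below it in lines 1 and 3 and above it in line 2, a pattern seen in 1.74% of all genes. AS line 2 was the highest line in 28 of 34 enzymes, against 34.7% of all genes, and at least 2-fold above both others in 12, against 2.44%. Its hepatocyte reference mean was 11.14, against 9.13 and 9.30 in lines 1 and 3, and its mean over 7 proliferation genes was 7.29, against 10.96 and 8.95. Whether either had a part in the enzyme differences was not tested.

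The hepatocyte reference allowed the liver differences to be read beside other hepatocyte genes. With the reference mean of each array as a covariate, the median difference between KO and WT livers over the 34 enzymes went from -1.46 to -0.19, with 27 negative and 7 positive. Hal kept -2.05 (SE 0.339, limma adjusted p = 0.1995) and the next lowest enzyme, Tat, had -0.83. With the reference mean subtracted from every gene the median was -0.25 and Hal had -2.02 (SE 1.07). Subtraction puts the spread of the reference into every gene, and the SE was 1.07 for each of the 34 enzymes. The smallest limma adjusted p over all genes was 0.412 in that fit, so its lack of calls says nothing of single enzymes. In neither fit did an enzyme pass the threshold. With the covariate 0 of all 19938 genes passed, and the smallest limma adjusted p over all genes was 0.1995, the value of Hal. The lack of calls in that fit therefore does not set the enzymes apart from other genes. AS line 2 and KO liver 1 had similar reference means, 11.14 and 11.02, and similar means over the 34 enzymes, 8.38 and 8.33. Single enzymes differed between these arrays in both directions: Tat read 6.01 in the line and 9.14 in the liver, and Fah 12.26 in the line and 9.62 in the liver.

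**Figure D3:**
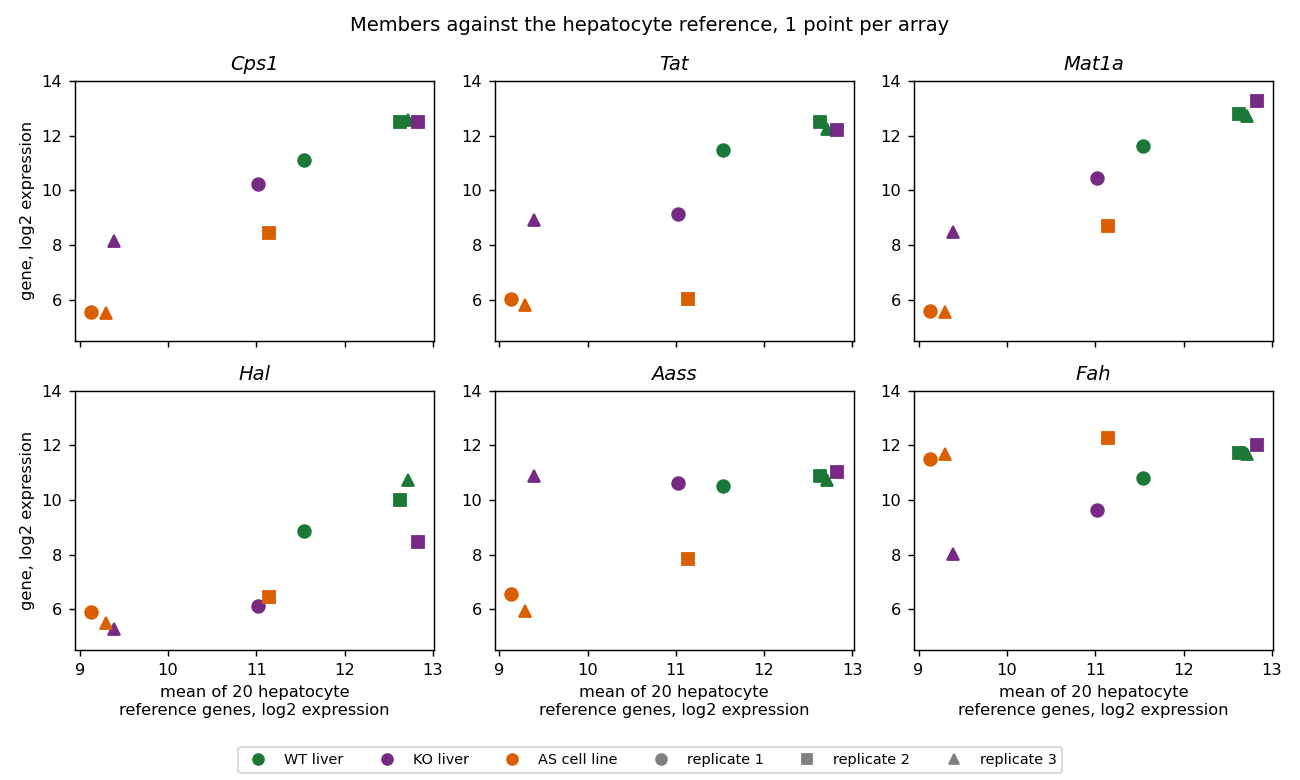
The horizontal axis of each panel is the mean of the 20 hepatocyte reference genes on an array and the vertical axis is the log2 expression of the named enzyme, with 1 point per array, colour for the group and symbol for the replicate. In the livers Cps1, Tat, Mat1a and Fah are low where the reference is low, Aass stays between 10.53 and 11.04, and the KO livers lie low for Hal. In the AS lines Tat is between 5.81 and 6.01, below the array medians of 7.01 to 7.05, so it may be at background. Fah is between 11.51 and 12.26 in the lines.

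The sequences before the start sites were compared by their CpG content, since promoters of genes used in most tissues are often rich in CpG while many liver-specific ones are not. RefSeq promoters in GRCm38.p6 were matched for 27 of the 34 enzymes, and CpG was counted in the 250 bases before the start. The 15 matched enzymes that fell in the AS lines against WT livers had a median of 5 CpG (0 to 16), with 2 above 10, Oat with 14 and Dmgdh with 16. The 11 that did not pass had a median of 11 (3 to 46), with 7 above 10. The median of all 32851 promoters in the table was 6, and 35.6% had more than 10. Among the 11 enzymes that did not pass, Ftcd, Amt and Sardh had 3 each. The sequences printed above were picked with the expression values in view, so their CpG counts are a description of single genes. The letters TATAAA on the sense strand were found in 2 of the 27 (Tdo2 and Ftcd), or 7.41%, against 7.59% of all promoters. These are counts of letters and no measure of binding or methylation.

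**Figure D4:**
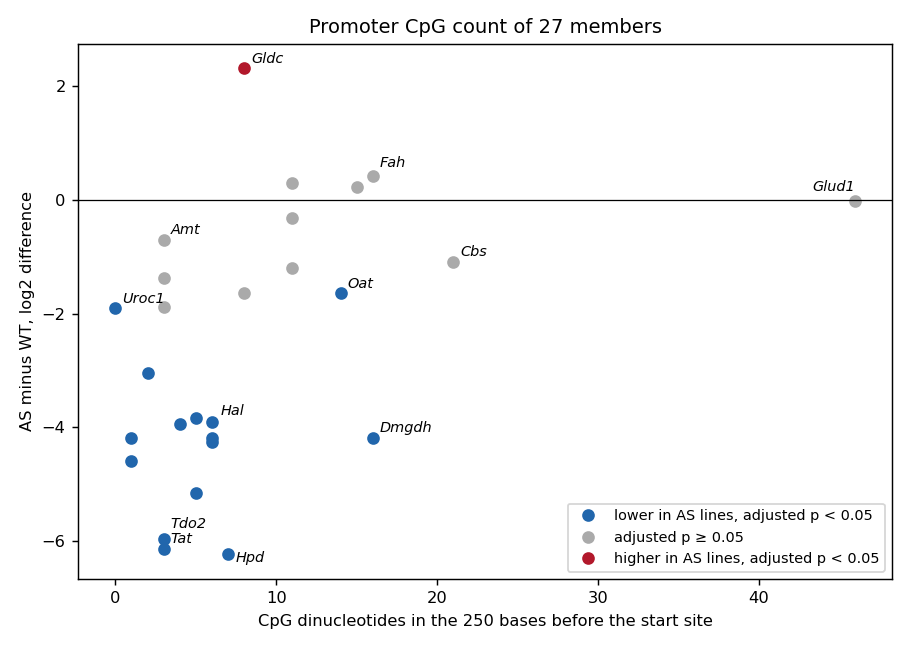
The horizontal axis is the number of CpG in the 250 bases before the start site and the vertical axis is the log2 difference of AS lines from WT livers, with 1 point for each of 27 enzymes. Blue points fell, the red point (Gldc) rose and grey points did not pass. Blue points lie mostly at 7 CpG or fewer, with Oat at 14 and Dmgdh at 16 as exceptions, and Glud1 lies apart at 46 CpG near no difference.

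Other genes of these pathways were followed through lists of related function. Among 38 further measured enzymes of amino acid breakdown, 0 passed between KO and WT livers, and 5 fell and 0 rose in the AS lines against WT livers, where 11.1% of all genes fell and 17.6% rose. Those that fell were Qprt, Bcat2, Bhmt2, Agxt2 and Gatm. Gatm, which starts creatine synthesis, read 12.52 to 12.75 in WT livers, 12.74 to 13.10 in KO livers and 10.54, 5.61 and 5.27 in AS lines (-5.49, SE 1.43, limma adjusted p = 0.0368). Here line 1 and not line 2 kept the highest level. Cdo1, which oxidises cysteine, showed the opposite split, with 5.64, 11.20 and 5.84 in the lines against 10.31 to 11.84 in WT livers (-3.71, SE 1.58, limma adjusted p = 0.142). Bcat2, the aminotransferase of branched-chain amino acids, fell by 1.64 against WT livers (SE 0.227, limma adjusted p = 0.00441). Against KO livers, 2 of the 38 rose (Shmt2 and Ethe1) and 2 fell (Bcat2 and Gatm), where 11.4% of all genes rose and 10.1% fell. Of 14 carriers and amino acid transporters, 3 fell against WT livers and 0 rose, beside the same 11.1% and 17.6% of all genes. Among those that fell were Slc1a2, a glutamate transporter, at -3.09 (SE 0.361, limma adjusted p = 0.00253) and Slc38a4, which takes up neutral amino acids, at -2.17 (SE 0.375, limma adjusted p = 0.00961).

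Of 11 measured regulators of these enzymes, 4 fell and 2 rose in the AS lines against WT livers, where 11.1% of all genes fell and 17.6% rose, and 0 passed between KO and WT livers. The glucocorticoid receptor Nr3c1 fell by 1.65 (SE 0.212, limma adjusted p = 0.00344), with 9.49 to 9.99 in WT livers and 8.16, 8.44 and 7.80 in the lines. The glucagon receptor Gcgr fell by 2.49 (SE 0.424, limma adjusted p = 0.00917), and the liver factors Cebpa and Cebpb fell by 1.67 (SE 0.218, limma adjusted p = 0.00362) and 1.33 (SE 0.177, limma adjusted p = 0.00383). In contrast Ppargc1a, a coactivator of fasting metabolism, rose by 2.81 (SE 0.194, limma adjusted p = 0.000401), with 9.61, 9.57 and 9.05 in the lines against 6.39 to 6.79 in WT livers, and the factor Foxa2 rose by 2.09 (SE 0.134, limma adjusted p = 0.000311). Hnf4a, a factor that many of these enzymes depend on, did not pass, with 10.95, 11.10 and 10.35 in the lines against 8.84, 10.53 and 10.35 in WT livers (0.89, SE 0.492, limma adjusted p = 0.244).

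Urea cycle enzymes and Hal are typical of the periportal zone of the liver lobule, so zonal genes outside the enzyme list were read beside them. Of 6 periportal genes, Cyp2f2 and Pck1 fell in the AS lines against WT livers, and of 8 pericentral genes Cyp2e1, Cyp1a2, Slc1a2 and Lgr5 did, where 11.1% of all genes fell. Cyp2e1 fell by 7.77 (SE 0.21, limma adjusted p = 1.78e-05). Between KO and WT livers none of either list passed. Cyp2f2 read 11.29, 11.86 and 12.17 in WT livers and 7.06, 10.55 and 6.99 in KO livers, so that, as for Hal, every KO liver including KO liver 2 lay below every WT liver (-3.58, SE 1.01, limma adjusted p = 0.139). Aldh1b1, a mitochondrial aldehyde dehydrogenase, was likewise apart, with 6.91, 7.62 and 8.26 in WT livers and 6.59, 6.65 and 6.65 in KO livers (-0.97, SE 0.334, limma adjusted p = 0.181). The other 4 periportal genes, Pck1, G6pc, Hsd17b13 and Igfals, overlapped between KO and WT livers, so 2 of 6 were apart with the KO livers lower, against 11.1% of all genes.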

How the data were processed

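The deposited table holds log2 expression of 35556 probe sets on 9 arrays, made by the authors with RMA and the oligo package, per the submitters' processing notes. Neither versions nor a genome build of the array was given in the sources used here. Array medians ran from 6.53 to 6.63, and the table has no detection calls, so low values may be background, against which folds are understated. Each group held 3 animals or 3 independently derived lines, per the labels. Probe sets were named from the platform annotation: 21789 named 1 gene, 1621 several and 12146 none. The gene IDs of 21698 were found in RefSeq, with 0 symbols changed. For 999 genes with several probe sets the one of highest mean was kept, leaving 19938 genes.

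Each pair of groups was fitted on its 6 arrays with limma 3.58.1 (lmFit, eBayes, 2-sided) in R 4.3.3, with p-values adjusted over all genes (Benjamini-Hochberg) and called under 0.05. The lists, their members and the tests were chosen with earlier results of these data known. The text names all measured enzymes, from each related list genes among its 3 largest differences per comparison, and the isozymes and carriers beside their enzymes. Shmt2, Ethe1, Qprt, Agxt2, Cebpb, Gcsh, Dld and other genes named beside a count were named after their values were seen. Mat2a, the isozyme of Mat1a, was not analysed here, and neither were protein sequences.

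The fit was tested on simulated data with known answers, with noise independent between genes. Shifts of a whole array, such as that of KO liver 2, were therefore not simulated. Of 100 genes given a log2 rise of 1, it recovered 72 for KO against WT livers. It recovered 42 for AS lines against KO livers and 47 for AS lines against WT livers. False calls were 4, 4 and 7 in the same order. The changed genes were drawn at random from all genes, of which 85.7% had a range under 1 over the 6 livers, against 2 of the 34 enzymes. The share recovered between KO and WT livers therefore does not carry over to the enzymes, which were more spread. Alternatives were one fit of all 9 arrays, the replicate number as block, trend and robust settings, leaving out dim genes, scaling to the 75th percentile, a repeat of quantile normalization, averaging a gene's probe sets, array weights, leaving out each array, a 2-fold minimum, an adjusted p under 0.10 and, for the livers, the hepatocyte reference as covariate or subtracted.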

Additional observations from a re-analysis of the deposited data

How the results depend on the processing

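Between KO and WT livers the count of enzymes past the threshold stayed at 0 in all settings but 2. Array weights, which gave KO liver 2 a weight of 0.315 and WT liver 1 one of 0.274, brought it to 31 of 34, all lower, where 9.22% of all genes passed as lower. Leaving out KO liver 2 brought it to 8, where 1.39% of all genes passed as lower. With single arrays left out the count ran from 0 to 8 and the median from -2.55 to -0.69. For AS lines against KO livers the count of 4 became 11 with the replicate block, 7 with all 9 arrays in one fit and 7 with dim genes left out, while the calls over all genes went from 4275 of 19938 to 3426, 5480 and, of the 11136 genes not dim, 4209. With single arrays left out it ran from 1 to 9, with 9 without KO liver 2, 2 without KO liver 3 and 1 without KO liver 1 or any 1 of the lines, and the median ran from -1.32 to -0.18. The calls over all genes moved as well. They were 3436 without KO liver 2, 2310 without KO liver 3 and 2281 without KO liver 1. Without AS lines 1, 2 and 3 they were 4048, 3656 and 3903. For AS lines against WT livers the count of enzymes stayed between 19 and 25 in the other settings and ran from 14 to 23 with single arrays left out, with a median of -3.09 to -2.17. With single arrays left out the calls over all genes went from 5715 to between 3397, without WT liver 2, and 5435, without AS line 1. The cause of these moves was not tested.

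The replicate numbers did not pair the arrays: same-numbered KO and WT livers deviated together with correlations over genes of 0.31, 0.43 and -0.39, AS lines and KO livers with 0.24, 0.34 and 0.07, and AS lines and WT livers with 0.04, 0.17 and -0.16. In each comparison at least 1 array correlated better with another number than with its own. With the replicate number as a block the counts for KO against WT livers, AS lines against KO livers and AS lines against WT livers were 0, 11 and 22 of 34 enzymes, and 0, 3426 and 4494 of all genes, against 0, 4275 and 5715 without it.

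Directions turned only for enzymes that passed in neither fit. Between KO and WT livers these were Aass with 75th percentile scaling (-0.0497) and array weights (-0.0592), and Glud1 with single arrays left out (-0.41 to 0.0198). Subtracting the hepatocyte reference, which moved the median of all genes to 1.21, turned Afmid (0.31), Amt (0.65), Asl (0.35), Ftcd (0.25), Glud1 (1.08), Got1 (0.73), Gpt (0.62), Nags (0.75), Oat (0.31), Prodh (0.22) and Uroc1 (0.18). The reference as covariate turned Agxt (0.12), Amt (0.38), Glud1 (0.25), Gpt (0.40), Kmo (0.0308) and Nags (0.31). For AS lines against KO livers, array weights turned Amdhd1 (0.49), Amt (0.34), Ftcd (0.0358) and Sardh (0.0534). Against WT livers they turned Afmid (-0.0585). Leaving out single arrays gave, against KO livers, ranges of -0.95 to 0.71 for Amdhd1, -0.58 to 0.65 for Amt, -0.78 to 0.14 for Ftcd, -1.34 to 0.25 for Hal, -1.19 to 0.14 for Sardh, -0.36 to 1.48 for Cbs, -0.13 to 1.37 for Prodh and -0.0452 to 0.38 for Glud1. Against WT livers they were -0.28 to 0.49 for Afmid, -0.31 to 0.14 for Glud1, -1.12 to 0.28 for Prodh, -0.15 to 0.86 for Gpt and -0.89 to 0.36 for Cth. With 75th percentile scaling the median over all genes was -0.18 between KO and WT livers and -0.19 between AS lines and WT livers.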
